A study of Homo sapiens with 6 samples.

Results

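The genes described here encode 35 components of the machinery that starts an autophagosome, builds its membrane and attaches ubiquitin-like proteins to it. They were taken from a named list, sorted by role into the ULK kinase complex (6 genes), the class III PI3K complex and its regulators (8), the WIPI, ATG2 and ATG9 group (8), the conjugation machinery (11) and late maturation factors (2). All 35 were measured, among 18417 genes tested. A gene was kept if a probe set carried its symbol alone, and where several did, the brightest by its mean of 6 arrays was used. ATG2B and ATG4B were the members with more than 1 such probe set.

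The samples were cultures of MDA-MB-231, an established human triple-negative breast cancer line, hybridised to Affymetrix whole-transcript arrays. The groups were 3 cultures given DMSO vehicle and 3 given YW3-56 at 10 µM, harvested after 8 h of the compound. This small molecule inhibits peptidylarginine deiminases, enzymes that turn arginine in proteins into citrulline. A time for the vehicle is not given separately in the labels, and they name no genetic change in either group. The labels call the replicates biological. All cultures are of a single line and a single dose and time, so the values describe that setting alone.

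Autophagy encloses parts of the cytoplasm in a closed membrane that then fuses with lysosomes. The ULK kinase complex, held back by the nutrient kinase mTORC1 and phosphorylated by the energy sensor AMPK, starts the process. The PI3K complex then marks the membrane with phosphatidylinositol 3-phosphate (PI3P), which WIPI proteins read, while ATG2 and ATG9 proteins supply lipid. ATG7, ATG10 and ATG3 act as activating and conjugating enzymes that join ATG12 to ATG5 and attach ATG8 proteins such as LC3 to lipid. Many of these steps are controlled on existing protein, which arrays do not measure.

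Values are log2 RMA levels, so a difference of 1 is a 2-fold change, and levels of different genes are not comparable because their probes differ. Array medians over all probe sets lay between 7.55 and 7.74, and Pearson correlations over genes were 0.990 to 0.997 within groups and 0.980 to 0.985 between them. DMSO means of the line's markers VIM, CD44, AXL, CAV1 and MSN lay between 13.23 and 13.36, against a median level of 8.20 over genes. ESR1 (6.82), PGR (5.96) and CDH1 (6.34), which this line is known to lack, and the leukocyte marker PTPRC (5.36) were below that median. SPARC (7.66) was below it too, and ERBB2 (9.09) and FOXA1 (8.70) above it. Probe sets of genes with no transcript still give a background reading, so these are orientation only. Precision rests on 3 arrays per group, and arrays carry no read depth.

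Promoter sequences are shown because several members rose together. RefSeq windows (GRCh38.p14) from 250 bases before to 50 after the start site were given for 29 of the 35 members, without RB1CC1, UVRAG, WDR45B, ATG4D, EPG5 and STX17. RUBCN, AMBRA1, WIPI2, WDR45 and ATG5 had 2 windows each, and only the first was searched. The shares given over all windows and over those of tested genes count every window. Exact letters were searched on both strands for 6 motifs. They were GTCACGTG (the core of the CLEAR element, bound by TFEB and TFE3), CACGTG (the E-box inside it), TGATGNAA (the ATF4 composite element), GTAAACA (FOXO), GAANNTTC (heat shock) and TGACNNNGC (antioxidant response). Every GTCACGTG match is also a CACGTG match. The stretches below lie upstream of the start site, 5′ to 3′ on the gene's strand, with any match in capitals. ATG14, NRBF2 and ATG3 are shown because they hold GTCACGTG, and WIPI1 and ULK1 because they rose most with ATG14 and hold no match.
ATG14, chr14:55411831-55411980, minus strand: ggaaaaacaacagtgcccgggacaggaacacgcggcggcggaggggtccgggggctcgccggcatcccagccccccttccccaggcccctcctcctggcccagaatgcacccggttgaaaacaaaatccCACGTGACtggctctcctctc
NRBF2, chr10:63133078-63133227, plus strand: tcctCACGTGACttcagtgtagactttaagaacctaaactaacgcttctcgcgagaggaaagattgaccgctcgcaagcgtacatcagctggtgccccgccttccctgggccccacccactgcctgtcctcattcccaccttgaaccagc
ATG3, chr3:112561963-112562112, minus strand: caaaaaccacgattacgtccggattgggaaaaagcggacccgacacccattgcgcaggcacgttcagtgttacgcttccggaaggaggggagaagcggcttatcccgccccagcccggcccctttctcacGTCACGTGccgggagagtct
WIPI1, chr17:68457497-68457646, minus strand: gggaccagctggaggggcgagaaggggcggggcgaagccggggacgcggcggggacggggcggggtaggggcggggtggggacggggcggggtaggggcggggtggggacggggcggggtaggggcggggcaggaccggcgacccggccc
ULK1, chr12:131894472-131894621, plus strand: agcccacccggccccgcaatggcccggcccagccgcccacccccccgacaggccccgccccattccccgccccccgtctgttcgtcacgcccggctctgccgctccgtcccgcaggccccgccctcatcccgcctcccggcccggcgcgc

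GTCACGTG was found in 3 of the 29 member windows, in 2.40% of 35116 RefSeq windows and in 3.12% of the 20109 windows of genes tested here. It lay at bases -21 to -14 from the start site in ATG14 and at -246 to -239 in NRBF2, on the opposite strand in both. ATG3 held it at -20 to -13 and again at 4 to 11. ATG14 and NRBF2, 2 of the 10 called members with a window, rose in YW3-56, and ATG3 was not called. Whether the match goes with the call was not tested. CACGTG was in 4 member windows, the additional one being ULK3, against 7.26% of all windows and 8.32% of those of tested genes. TGACNNNGC was in ULK3 and ATG101, neither of them called, against 13.3% and 14.1%. TGATGNAA (3.62% of all windows and 2.67% of those of tested genes), GTAAACA (3.42% and 2.75%) and GAANNTTC (6.77% and 5.56%) were in 0 of the 29. These are matches of letters in a short window, not sites shown to be bound.

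In cells treated with YW3-56, 12 of the 35 genes were higher and 0 were lower. The largest rises were those of WIPI1, a PI3P-binding protein of the forming membrane (2.0-fold), ATG14, the subunit that directs the PI3K complex to autophagy (1.81-fold), and ULK1, the initiating kinase (1.63-fold). The other 9 rises were below 1.5-fold. Over all genes, limma called 9.84% higher and 11.5% lower at an adjusted p under 0.05, 21.4% in all. Most members are brighter than the median gene, and calls were commoner among such genes. A fit of genes above the median level alone called 19.6% higher and 25.6% lower. Of the 33 members tested there, 17 were higher and 0 lower. The median log2 fold change was 0.18 over the 35 genes and -0.05 over all genes tested. By role, 5 of 8 PI3K genes, 2 of 6 ULK genes, 3 of 8 WIPI, ATG2 and ATG9 genes, 1 of 11 conjugation genes and 1 of 2 maturation genes were called. These shares were not tested against each other. In RNA from whole cultures, a change in all cells and a larger change in some of them cannot be told apart.

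Without a test, 25 of the 35 log2 fold changes were above 0, as were those of 37.9% of all genes. All 3 treated arrays lay above all 3 DMSO arrays for 21 of the 35, against 15.5% of all genes. They lay below for PIK3C3 and ATG16L2, 2 of the 35, against 21.4% of all genes, and overlapped for 12. At an unadjusted p under 0.05, limma gave 18 of the 35 higher and 0 lower. The share of all genes at that unadjusted threshold was not computed, so these counts have no background beside them. No alternative fit called a member lower. Relative to each gene's own DMSO mean, the median over the 35 was 0.24, 0.12 and 0.17 on the treated arrays 1, 2 and 3. The same median over all genes was -0.07, -0.02 and -0.06.

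**Figure D1:**
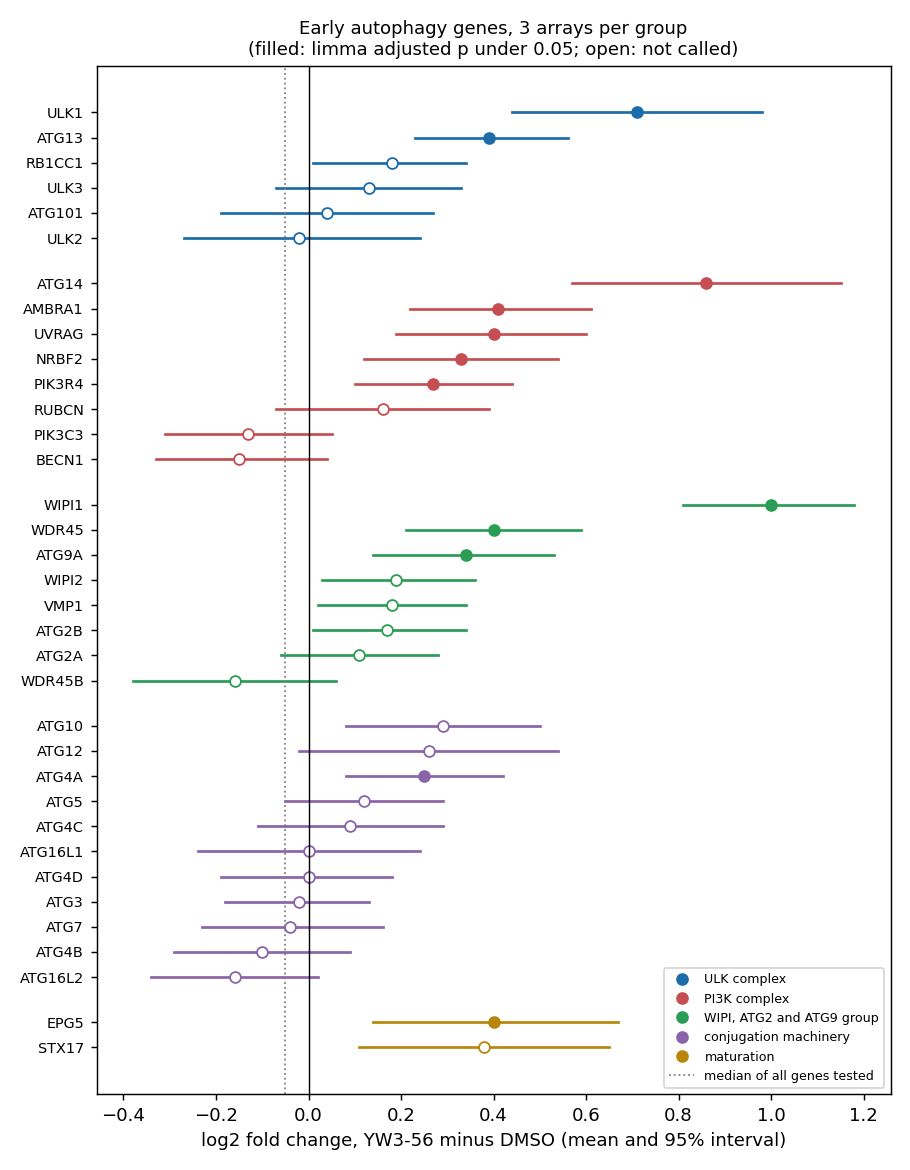
Log2 fold change of each of the 35 genes (x axis, YW3-56 minus DMSO; point, difference of means of 3 arrays; line, 95% interval of the limma fit), grouped by role, filled where the adjusted p was under 0.05. The 12 filled points all lie above 0, led by WIPI1 at 1.00, and the conjugation genes lie between -0.16 and 0.29.

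Whether a call held under other processing separated the 12. ULK1, ATG13, ATG14 and WIPI1 were called in all 16 alternative fits, which include leaving out each array. The remaining 8 calls were each lost in at least 1 of them, and leaving out YW3-56 replicate 3 reduced the count to 5, YW3-56 replicate 1 to 7 and DMSO replicate 2 to 6. The direction of the 12 called genes turned in none of the 16.

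**Figure D2:**
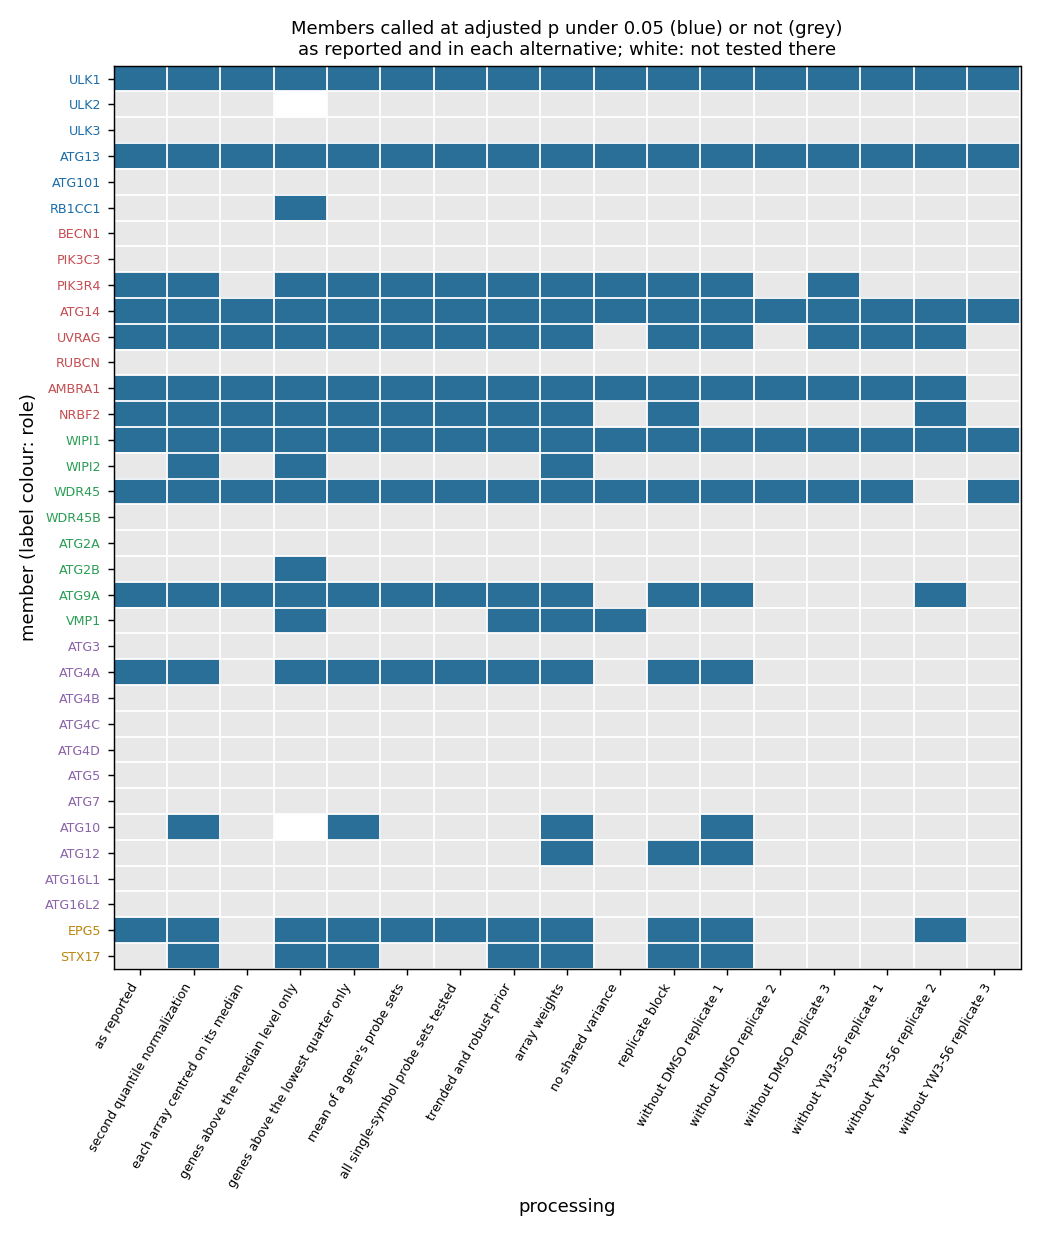
Each row is a gene and each column a way of processing the values; blue marks an adjusted p under 0.05, grey none and white a gene not tested there. The rows of ULK1, ATG13, ATG14 and WIPI1 are blue throughout, while those of ATG4A, EPG5 and NRBF2 are broken mainly where a single array was left out.

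In the ULK complex, the kinase ULK1 and its regulatory subunit ATG13 rose, where 9.84% of all genes were called higher. The other 4 members were not called (median log2 fold change 0.15). ULK1 phosphorylates the PI3K complex and ATG9A, among other targets. It read 8.69, 8.99 and 9.0 on the DMSO arrays and 9.71, 9.68 and 9.41 on the YW3-56 arrays. The groups did not overlap, and the closest arrays, both numbered 3, differed by 0.41. Its log2 fold change was 0.71 ± 0.12 (SE, n = 3 in each group, adjusted p = 0.0039 by limma), and 2.26% of all genes had a higher change. ATG13, which links ULK1 to the rest of the complex, read 10.95, 10.98 and 10.92 in DMSO and 11.40, 11.30 and 11.33 in YW3-56. Those 3 DMSO arrays were close together, with an SD of 0.03, and the rise of 0.39 ± 0.07 had an adjusted p of 0.0055 in the same limma fit.

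RB1CC1 encodes FIP200, the scaffold of the complex. It read 8.95, 8.99 and 8.94 in DMSO and 9.20, 9.09 and 9.13 in YW3-56. All treated arrays were above all DMSO arrays, but the change of 0.18 was not called (95% interval 0.01 to 0.34, limma adjusted p = 0.12), except in a test of the brighter genes alone (0.0388). ULK2, the closest relative of ULK1, had the smallest change of the complex, with DMSO values of 7.66, 7.43 and 7.78 and YW3-56 values of 7.76, 7.48 and 7.59. Its groups overlapped, and its change of -0.02 had a 95% interval from -0.27 to 0.24. The DMSO mean of ULK2, 7.63, was below the median level of 8.20 over genes. How much of this reading is background was not tested. For ULK3, a kinase also tied to hedgehog signalling, the change was 0.13 (-0.07 to 0.33), and for ATG101, which stabilises ATG13, it was 0.04 (-0.19 to 0.27). The sign of ULK2 turned under 6 alternatives and that of ATG101 under 1, as values close to 0 can.

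The changes of the kinases were compared within arrays. The log2 value of ULK1 minus that of ULK2 was 0.72 higher in YW3-56 than in DMSO, with SDs of 0.19 and 0.26 over arrays. For ULK1 minus ULK3 the difference was 0.58. In both comparisons every treated array lay above every DMSO array, and the exact two-sided permutation p was 0.10, the smallest that 3 against 3 arrays allow. Of the 13 such pairs of members computed here, none could have reached 0.05 in this design (lowest Benjamini-Hochberg adjusted p 0.118). The p-values thus do not tell the pairs apart. The pairs were chosen with earlier results of these data known, so separated groups in them are a description, not independent support.

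**Figure D3:**
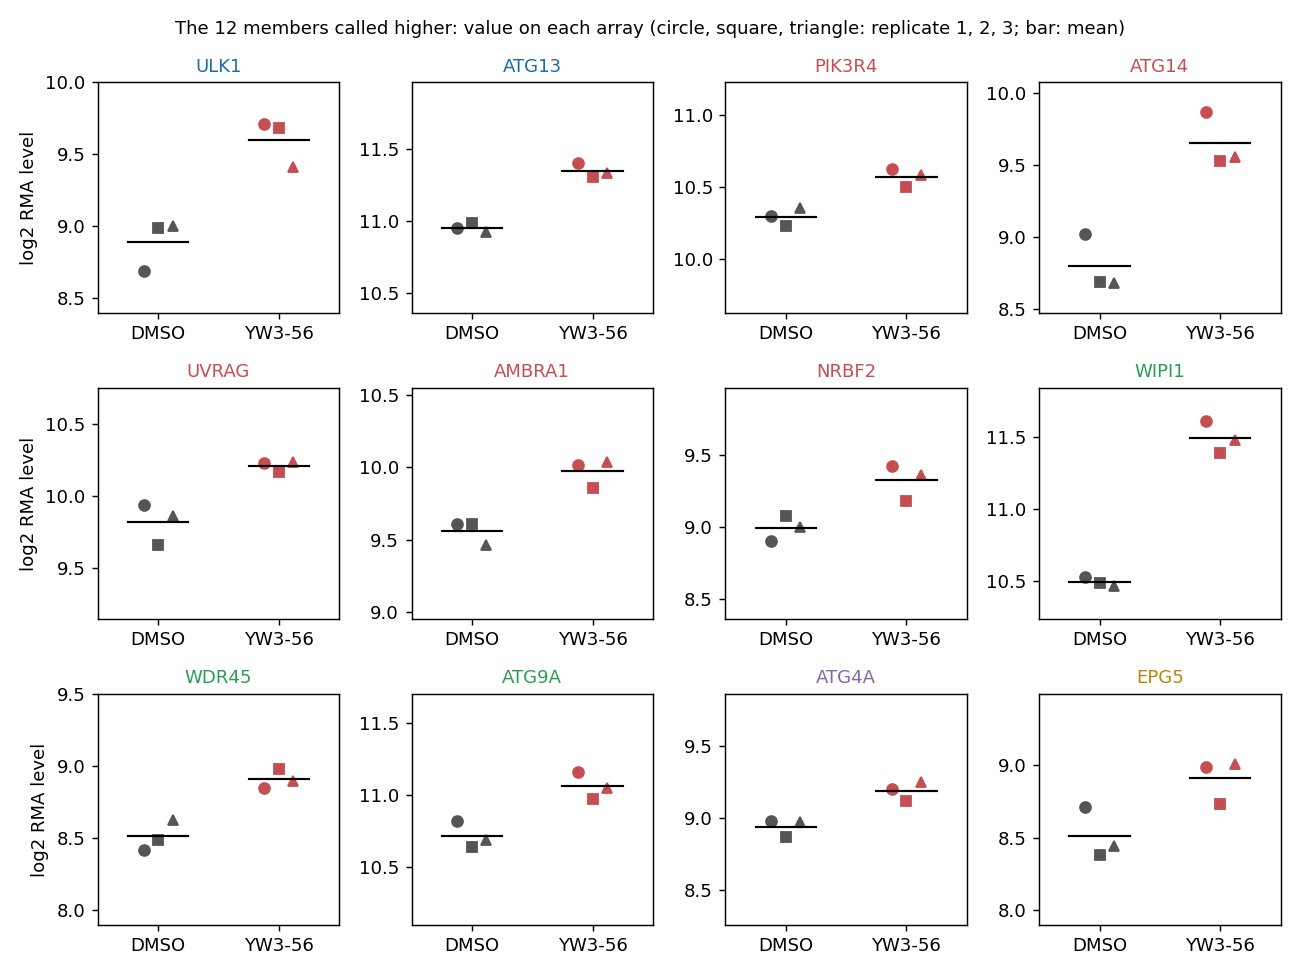
Log2 RMA level (y axis, each panel spanning the same range of log2 units) of the 12 called genes on each array, with DMSO in grey, YW3-56 in red, a bar at the group mean and a marker shape for each replicate number. The groups do not overlap in any panel, and the gap is widest for WIPI1, from 10.53 to 11.39. The genes were picked by their calls on these same arrays, so this separation is not independent support.

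Of the PI3K complex and its regulators, 5 of 8 rose, where 9.84% of all genes were called higher. The lipid kinase PIK3C3 (VPS34), BECN1 and RUBCN were not called. The count was 1 to 4 when single arrays were left out, and lowest without YW3-56 replicate 3. The median log2 fold change was 0.30. ATG14, which brings the complex to the site of autophagosome formation, read 9.02, 8.69 and 8.68 in DMSO and 9.87, 9.53 and 9.56 in YW3-56. Replicate 1 was the highest array in each group, and the differences between arrays of the same number were 0.85, 0.84 and 0.88. The labels do not say that arrays of the same number are pairs. The rise was 0.86 ± 0.13 (SE, n = 3 per group, limma adjusted p = 0.0024), and 1.41% of all genes had a higher change.

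AMBRA1, a scaffold that joins BECN1 to ULK1 regulation, read 9.61, 9.61 and 9.46 in DMSO and 10.02, 9.86 and 10.04 in YW3-56. It rose by 0.41 ± 0.08 (limma adjusted p = 0.0095), and the call was lost only without YW3-56 replicate 3 (0.0518). UVRAG, which takes the place of ATG14 in the form of the complex that serves endosomes and late steps, read 9.94, 9.66 and 9.86 in DMSO and 10.23, 10.17 and 10.24 in YW3-56. The treated arrays were close together and all higher. Its rise of 0.40 ± 0.09 (limma adjusted p = 0.015) lost its call without DMSO replicate 2 (0.0533), without YW3-56 replicate 3 (0.0679) and without shared variance between genes (0.0585).

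NRBF2, a subunit that raises the activity of the ATG14 form, read 8.90, 9.07 and 9.0 in DMSO and 9.42, 9.18 and 9.36 in YW3-56. YW3-56 replicate 2 was only 0.11 above the DMSO array of the same number. Its rise of 0.33 ± 0.09 (limma adjusted p = 0.032) was lost when any single DMSO array was left out (0.0538, 0.0592 and 0.0655 for replicates 1, 2 and 3). It was also lost without YW3-56 replicate 1 (0.109) or 3 (0.125) and without shared variance (0.0892). PIK3R4, the VPS15 pseudokinase subunit, read 10.30, 10.23 and 10.35 in DMSO and 10.62, 10.50 and 10.58 in YW3-56. All treated arrays were higher, by 0.27 ± 0.07 (limma adjusted p = 0.032). That call was lost without DMSO replicate 2 (0.125), without YW3-56 replicates 1 (0.103), 2 (0.0605) or 3 (0.119), and after centring of each array (0.0517).

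PIK3C3, the catalytic subunit that makes PI3P, read 9.39, 9.46 and 9.26 in DMSO and 9.23, 9.24 and 9.25 in YW3-56. Here the treated arrays lay below all DMSO arrays, though barely so at DMSO replicate 3, and the change of -0.13 was not called (95% interval -0.31 to 0.05, limma adjusted p = 0.30). BECN1, the central scaffold of the complex, changed by -0.15 (-0.33 to 0.04, adjusted p = 0.26) with overlapping groups. RUBCN encodes Rubicon, an inhibitor of the UVRAG form. Its 3 DMSO arrays read 9.45, 9.49 and 9.44 and its treated arrays 9.84, 9.52 and 9.50, so the change of 0.16 (-0.07 to 0.39) came mostly from YW3-56 replicate 1. In log2 values, ATG14 minus BECN1 was 1.00 higher in YW3-56 than in DMSO, and ATG14 minus UVRAG was 0.46 higher. Arrays of the groups did not overlap in either (exact permutation p = 0.10 each).

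In the WIPI, ATG2 and ATG9 group, 3 of 8 rose, and 7 of 8 had all treated arrays above all DMSO arrays (median log2 fold change 0.18). Over all genes, 9.84% were called higher and 15.5% had all treated arrays above. WIPI1 binds PI3P on the forming membrane. It read 10.53, 10.49 and 10.47 in DMSO and 11.61, 11.39 and 11.48 in YW3-56. The rise of 1.00 ± 0.08 (limma adjusted p = 2.3e-04) was the largest of the 35, against an SD of 0.11 between treated arrays, and 0.901% of all genes had a higher change. Under the alternatives it stayed between 0.94 and 1.05. WDR45, which encodes WIPI4 and binds ATG2, read 8.42, 8.49 and 8.63 in DMSO and 8.85, 8.98 and 8.90 in YW3-56. Its rise of 0.40 ± 0.08 (limma adjusted p = 0.011) was lost only without YW3-56 replicate 2 (0.0512).

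WIPI2, which recruits ATG16L1 to PI3P, read 8.96, 8.94 and 9.05 in DMSO and 9.22, 9.16 and 9.15 in YW3-56. All treated arrays were higher, yet the change of 0.19 was not called (95% interval 0.03 to 0.36, limma adjusted p = 0.098). It was called in 3 of 16 alternatives (0.0266 to 0.0492). WDR45B, which encodes WIPI3, changed by -0.16 (-0.38 to 0.06) with overlapping groups. The relatives of this family thus ran from -0.16 to 1.00. In log2 values, WIPI1 minus WIPI2 was 0.80 higher in YW3-56 than in DMSO, with an SD of 0.08 between arrays in each group. The corresponding difference was 0.60 for WIPI1 minus WDR45, 1.16 for WIPI1 minus WDR45B and 0.56 for WDR45 minus WDR45B. The groups did not overlap in any of them (exact permutation p = 0.10 each).

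ATG9A is the membrane protein of the vesicles that seed autophagosomes. It read 10.82, 10.64 and 10.69 in DMSO and 11.16, 10.97 and 11.05 in YW3-56. Arrays of the same number differed by 0.34, 0.33 and 0.36, though pairing by number is uncertain. The rise of 0.34 ± 0.08 (limma adjusted p = 0.023) was lost without DMSO replicate 2 (0.096) or 3 (0.0588), without YW3-56 replicate 1 (0.0818) or 3 (0.0811), and without shared variance (0.0631).

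ATG2A and ATG2B, which move lipid from the endoplasmic reticulum into the growing membrane, were not called. ATG2A had the smallest change of its group, reading 9.40, 9.40 and 9.32 in DMSO and 9.56, 9.42 and 9.48 in YW3-56 (change 0.11, 95% interval -0.06 to 0.28). ATG2B changed by 0.17 (0.01 to 0.34), and its dimmer probe set by 0.19. It was called only in the test of the brighter genes alone (0.0439). The changes of ATG2A and ATG2B differed by -0.06, and their groups overlapped (exact permutation p = 0.50). VMP1, an endoplasmic reticulum scramblase that works with ATG2, read 12.91, 12.80 and 12.88 in DMSO and 13.06, 13.02 and 13.04 in YW3-56. Its groups did not overlap, and its change of 0.18 (0.02 to 0.34) had a limma adjusted p of 0.12, with a call in 4 of 16 alternatives (0.0089 to 0.0474).

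**Figure D4:**
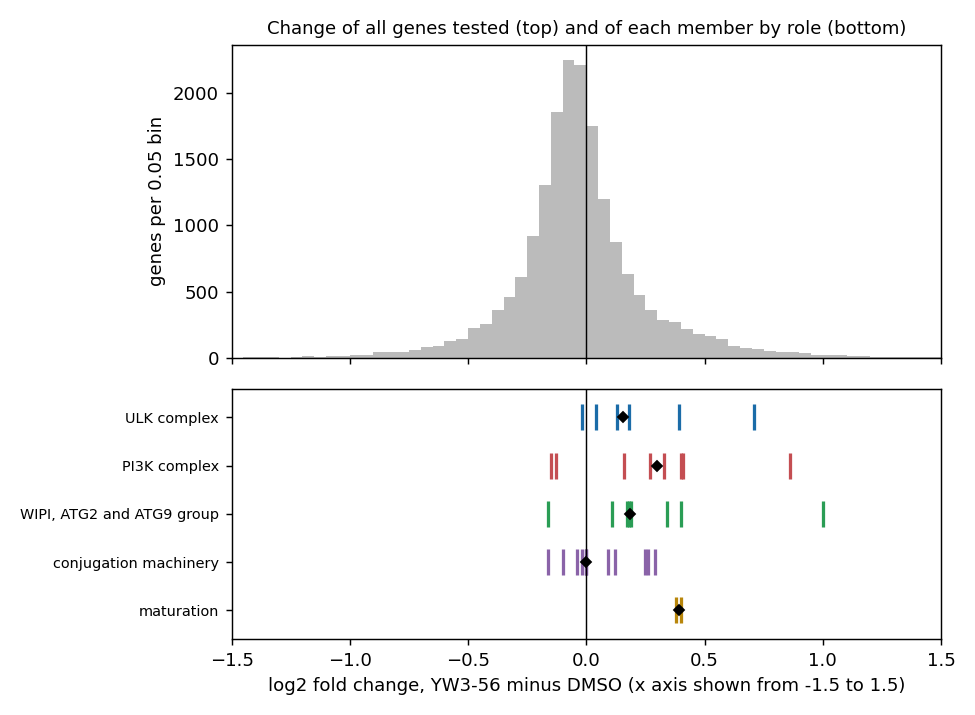
Top, number of genes at each log2 fold change (x axis, YW3-56 minus DMSO) over all 18417 genes tested, shown from -1.5 to 1.5, with 64 genes beyond these limits not drawn. Bottom, each member as a tick in the row of its role, with the role's median as a diamond: 0.15 for the ULK complex, 0.30 for the PI3K complex, 0.18 for the WIPI, ATG2 and ATG9 group, 0.00 for the conjugation machinery and 0.39 for the maturation genes.

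In the conjugation machinery 1 of 11 genes rose, and the median log2 fold change was 0.00. Over all genes 9.84% were called higher, so this count was near that share. ATG4A, a protease that trims ATG8 proteins and releases them from lipid, read 8.98, 8.87 and 8.97 in DMSO and 9.20, 9.12 and 9.25 in YW3-56. Its treated arrays were all higher, by 0.25 ± 0.07, but its limma adjusted p of 0.048 was the closest to the threshold among the 12. The call was lost without DMSO replicate 2 (0.173) or 3 (0.0771), without YW3-56 replicates 1 (0.121), 2 (0.0772) or 3 (0.186), after centring (0.0819) and without shared variance (0.0543).

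The other ATG4 proteases were not called, with 0.09 for ATG4C (95% interval -0.11 to 0.29), -0.10 for ATG4B (-0.29 to 0.09) and 0.00 for ATG4D (-0.19 to 0.18). The dimmer probe set of ATG4B changed by -0.08. In log2 values, ATG4A minus ATG4B was 0.35 higher in YW3-56 than in DMSO. ATG4A minus ATG4D was 0.25 higher and ATG4A minus ATG4C 0.16 higher. The groups did not overlap in any of these comparisons (exact permutation p = 0.10 each).

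ATG7, the activating enzyme shared by ATG12 and the ATG8 proteins, changed by -0.04 (95% interval -0.23 to 0.16). ATG3, which passes ATG8 proteins to lipid, read 11.03, 11.04 and 11.04 in DMSO and 10.97, 11.01 and 11.06 in YW3-56, and its change of -0.02 had an interval from -0.18 to 0.13. The upper bounds of both intervals lay below the changes of ULK1 and ATG14. ATG10, which carries ATG12 to ATG5, read 7.29, 7.07 and 7.23 in DMSO and 7.47, 7.61 and 7.39 in YW3-56. Its change of 0.29 was the largest in the group and narrowly missed the call (0.08 to 0.50, limma adjusted p = 0.055), which it passed in 4 of 15 alternatives: a second quantile normalization (0.0479), removal of the dimmest genes (0.0379), array weights (0.00752) and the fit without DMSO replicate 1 (0.03).

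ATG12, the ubiquitin-like protein joined to ATG5, changed by 0.26 (-0.02 to 0.54, limma adjusted p = 0.20) with overlapping groups. It was called with array weights (0.0199), with replicate number as a block (0.0496) and without DMSO replicate 1 (0.0392), so the blocked fit gave 2 conjugation genes in place of 1. ATG5 changed by 0.12 (-0.05 to 0.29), with all treated arrays higher. ATG16L1, which places the ATG12 and ATG5 conjugate on the membrane, read 8.67, 8.49 and 8.58 in DMSO and 8.77, 8.41 and 8.55 in YW3-56. Its change was 0.00 (-0.24 to 0.24). Its relative ATG16L2 changed by -0.16 (-0.34 to 0.02), with all treated arrays lower. The changes of ATG16L1 and ATG16L2 differed by 0.16 with overlapping groups (exact permutation p = 0.40).

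Both maturation factors were higher on every treated array than on every DMSO array, as were 15.5% of all genes. EPG5, a tether that joins autophagosomes to late endosomes and lysosomes, read 8.71, 8.38 and 8.44 in DMSO and 8.99, 8.73 and 9.01 in YW3-56. YW3-56 replicate 2 was only just above DMSO replicate 1, the closest approach of the groups. Its rise of 0.40 ± 0.12 (limma adjusted p = 0.041) was lost without DMSO replicate 2 (0.147) or 3 (0.106), without YW3-56 replicate 1 (0.127) or 3 (0.155), after centring (0.0545) and without shared variance (0.15). STX17, the SNARE protein of the closed autophagosome, read 9.07, 9.02 and 8.66 in DMSO and 9.36, 9.21 and 9.31 in YW3-56. DMSO replicate 3 was the low array. Its change of 0.38 ± 0.12 just missed the call (limma adjusted p = 0.052) and passed it in 7 of 16 alternatives. These were a second quantile normalization (0.0384), both filters on dim genes (0.0234 and 0.0386), a trended and robust prior (0.0279), array weights (0.021), replicate number as a block (0.0403) and the fit without DMSO replicate 1 (0.019).

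Genes around this machinery were read from lists of 92 names, of which 86 were measured, 28 were higher and 10 lower. Over all genes tested, 9.84% were higher and 11.5% lower, so the count of falls was near that share. Of 6 ATG8 genes, which the conjugation enzymes act on, 2 rose and 0 fell: GABARAPL1 by 2.31 ± 0.08 and MAP1LC3B, the gene of LC3B, by 0.78 ± 0.08. The median of the other early membrane factors was 0.09, with 7 of 18 higher and 0 lower. TMEM41B, an endoplasmic reticulum scramblase related to VMP1, rose by 0.80 ± 0.08 and WHAMM, an actin nucleation factor, by 0.66 ± 0.08. Among 15 cargo receptors, 4 rose and 2 fell, the falls again near the share over all genes, and the largest rises were those of SQSTM1 (0.94 ± 0.10) and NBR1 (0.48 ± 0.08).

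Of 14 genes for fusion with lysosomes, 3 rose and 1 fell, where 21.4% of all genes were called in either direction, so these few calls say little about the list. VPS39 (0.76 ± 0.09) and VPS11 (0.45 ± 0.09), subunits of the HOPS tethering complex, rose most. Transcription factors tied to autophagy rose in 6 of 11 and fell in 0, with DDIT3 (3.36 ± 0.12) and CEBPB (0.83 ± 0.08) in front. Upstream kinases and regulators went both ways, with 6 of 22 higher and 7 lower. PRKAG2, a regulatory subunit of AMPK, fell by 1.10 on the log2 scale (SE 0.11), while PRKAB1, its scaffold subunit, rose by 0.93 ± 0.07. The calls of the genes given with an SE in these lists held in all 16 alternatives.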

How the data were processed

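Affymetrix arrays of 3 DMSO and 3 YW3-56 cultures were used. Per the submitters' processing notes, the authors obtained the deposited log2 values with RMA and affy, without a version being stated there. RMA equalises array distributions, so a change common to all transcripts would not show. Of 33297 probe sets, 19460 carried 1 symbol in the platform annotation and were used. No member appeared in a probe set with several symbols.

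YW3-56 was compared with DMSO by limma 3.58.1 in R 4.3.3 (lmFit and eBayes, group as the only term, no filter), two-sided, with Benjamini-Hochberg adjustment over 18417 genes. The script was tested on simulated data. Members of 13 pairs were compared by exact permutation over arrays. The pairs, the members and the lists were chosen with earlier results of these data known. All members are named. Array values are given for called members, for the least changed uncalled member of each role and for some others picked after their values were seen. Of each further list the 2 genes with the largest change are named, called genes first. A planned comparison of protein sequences was not run.

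Deviations from group means correlated over genes at 0.539, 0.37 and 0.102 between arrays numbered 1, 2 and 3. All exceed the cut of 0.1 used for pairing, but number 3 barely does. For YW3-56 replicate 2, the highest value among the DMSO arrays was at replicate 3 (0.416). The labels number the replicates without saying that they are paired. Pairing by number is thus uncertain, and the block was used only in an alternative fit. The reported fit has no block. Alternatives were the blocked fit, other scaling, filters, probe set choices and priors, array weights and leaving out each array.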

Additional observations from a re-analysis of the deposited data

How the results depend on the processing

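The 16 alternatives kept the direction of all 12 called members. Signs turned only for ULK2, ATG3, ATG4D, ATG7, ATG16L1 and ATG101, none of them called and none above 0.04 in size as reported. A second quantile normalization gave 0.01 for ULK2 and ATG3, 0.02 for ATG16L1 and 0.03 for ATG4D, and centring gave 0.01, 0.01, 0.03 and 0.03. Array weights gave 0.08 for ULK2, 0.03 for ATG16L1 and 0.04 for ATG4D. Leaving out single arrays gave -0.06 to 0.10 for ATG101, -0.10 to 0.08 for ATG16L1, -0.05 to 0.00 for ATG3, -0.04 to 0.05 for ATG4D, -0.08 to 0.03 for ATG7 and -0.11 to 0.06 for ULK2.

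All genes called numbered 6079 with array weights against 3933 as reported, and 2364 (without YW3-56 replicate 3) to 4689 without single arrays. Members called higher numbered 5 to 14 without single arrays, PI3K genes 1 to 4 (3 without shared variance) and conjugation genes 0 to 3. Conjugation genes called were 2 after a second quantile normalization, with the dimmest genes removed or with the replicate block, 3 with array weights and 0 after centring or without shared variance. WIPI, ATG2 and ATG9 genes called were 6 among genes above the median level, where fewer genes are tested, and 5 with array weights. Otherwise the cause was not tested. The replicate block added ATG12 and STX17, and changed no other member's call. ULK2 and ATG10 were below the median level and have no value there. Arrays give no depth, so 3 arrays per group limit what small changes can be called.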

Other observations

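AMPK, the energy sensor that phosphorylates ULK1, is built from a catalytic, a scaffold and a regulatory subunit, and genes of each kind were called. Directions differed between the kinds, and only the regulatory subunit genes differed among themselves. The AMPK genes beyond PRKAG2 and PRKAB1 were singled out after their values were seen. The catalytic subunit genes fell: PRKAA1 by 0.43 on the log2 scale (SE 0.08, n = 3 per group, limma adjusted p = 0.0068) and PRKAA2 by 0.53 (SE 0.12, adjusted p = 0.018). PRKAA2 lost its call without YW3-56 replicate 2 (0.0707) or 3 (0.0793) and without shared variance (0.106). The scaffold subunit gene PRKAB2 rose by 0.93 ± 0.09 (limma adjusted p = 5.1e-04), as PRKAB1 had. Of the regulatory subunits, PRKAG1 rose by 0.35 ± 0.07 (limma adjusted p = 0.0082) while PRKAG2 fell. All 6 arrays of each of these 4 genes separated by group. Treated arrays lay all above DMSO arrays for 15.5% of all genes and all below for 21.4%. Over all genes, limma called 9.84% higher and 11.5% lower.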
